A study of Oryza sativa with 12 samples.

Results

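Leaf transcripts of 2 rice (Oryza sativa) genotypes were compared while the plants were under water: FR13A submerged for 3 d against Goda Heenati submerged for 3 d. The comparison rests on 6 of the 12 arrays of the series, 3 for each genotype, taken by sample title, and on every gene the array measured. The other 6 arrays, 3 of FR13A and 3 of Goda Heenati kept in a tank without water, served as controls. All seedlings were 14 d old, the labels name no transgene or mutation, and the RNA of one sample came from leaves of about 20 plants pooled over pots. Water stood 70 cm deep. Shoot tips lay 52.7 ± 2.3 cm under the surface in FR13A and 45.9 ± 2.9 cm under it in Goda Heenati, so depth over the shoot and genotype cannot be told apart. The labels do not say whether replicates came from separate tanks or growth runs, and p-values measure the spread between these pooled samples.

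Gas moves slowly in water, so a flooded leaf runs short of oxygen and keeps the ethylene it makes. Low oxygen turns on fermentation, in which pyruvate decarboxylase and alcohol dehydrogenase regenerate NAD+ and aldehyde dehydrogenase later removes acetaldehyde. Trapped ethylene lowers abscisic acid and raises gibberellin action, which drives elongation in many rice genotypes. FR13A is a landrace known for submergence tolerance, attributed largely to the SUB1 locus of ethylene response factor genes, which restrains elongation and carbohydrate use. How well Goda Heenati tolerates submergence was not assessed here. Jasmonate, another hormone, controls defence genes, among them those for diterpenoid phytoalexins, and its JAZ (TIFY) repressors are themselves induced by jasmonate.

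Each level is the log2 of a probe's processed signal after scaling every array to its own 75th percentile. A level of 0 is that percentile, and 1 unit is 2-fold. Differences are FR13A minus Goda Heenati, with the standard error (SE) of a limma fit of the 4 group means over 12 arrays. A gene was called at a Benjamini-Hochberg adjusted p under 0.05 over all genes tested and at least 2-fold. The 6 submerged arrays had 30643 to 34266 of 42418 probes well above background. Arrays of one genotype correlated at r of 0.943 to 0.968 across genes, and arrays of different genotypes at 0.854 to 0.915. Genes are not independent replicates. The replicate number is also the slide. Slide 1 carried 1860 and 2073 saturated probes on its FR13A and Goda Heenati submerged arrays, and the other slides carried 0. Each gene name stands with the locus it was paired with, since the pairing came from general knowledge and not from the array.

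Of 22739 genes tested, 2308 were called between submerged FR13A and submerged Goda Heenati leaves (10.1%). In FR13A 1122 were higher (4.93%) and 1186 were lower (5.22%). With the replicate number as a block 2933 were called (12.9%). The fitted difference was at least 4-fold for 671 of the genes higher in FR13A and for 810 of those lower. Of the called genes 1262 were well above background on all 6 submerged arrays, and for the others the size of a fitted difference rests partly on signal near background. The 3 FR13A values lay wholly above or wholly below the 3 Goda Heenati values for 2303 of the called genes, while 25.2% of all genes tested were separated in this way. On each of the 3 slides the difference had the called direction for 2283 genes and was at least 2-fold for 1950. The genes were called on these same arrays, so their separation and shared direction largely follow from the choice and add no support.

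The largest well measured differences belonged to loci without a name here. Os06g0591200 was at 1.63, 1.44 and 1.25 on the FR13A submerged arrays, against -4.73, -6.08 and -4.73 on the Goda Heenati submerged arrays, a difference of 6.62 ± 0.57 (limma adjusted p = 2.15e-05) that its 2 probes put at 6.62 and 6.77. Os06g0493000 was at 0.41, 0.76 and 0.88 in FR13A, against -5.95, -6.24 and -5.12 in Goda Heenati (6.45 ± 0.33, limma adjusted p = 5.99e-07). In the other direction Os06g0312900 was at -6.38, -4.48 and -6.34 in FR13A, against 2.21, 1.88 and 1.63 in Goda Heenati (-7.64 ± 0.79, limma adjusted p = 7.78e-05). Os11g0227200 was at -6.09, -6.45 and -5.95 in FR13A, against 1.47, 1.52 and 0.62 in Goda Heenati (-7.36 ± 0.51, limma adjusted p = 4.36e-06). These 4 loci were picked for their calls, signal well above background on all 6 submerged arrays and no overlap in any kept probe. Their separation was thus fixed by the choice. In control leaves the same loci differed by 4.59, 5.78, -6.74 and -7.32, all called. All 4 loci kept their call under every alternative that measured them, each single array left out included.

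Control leaves of the same genotypes, on arrays that the submerged comparison does not use for its group means, showed which of these differences were there without water. Of the 2308 called genes 2239 had the same sign in controls (97.0%), against 67.7% of the genes not called. The control comparison itself called 1919 genes (8.44%), of which 937 (4.12%) had more signal in FR13A and 982 (4.32%) less. Of these, 1499 were called in the same direction under submergence, 722 higher and 777 lower in FR13A. No gene was called in opposite directions. Of the genes called under submergence 1774 (76.9%) differed at least 2-fold the same way in controls, 530 (23.0%) differed less than 2-fold there and 4 differed at least 2-fold the other way. Across all genes tested the 2 sets of differences correlated at r = 0.844 and rho = 0.616, where the points share array design and probes. The fit takes one estimate of the spread from all 12 arrays.

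Whether a genotype difference itself differed between submerged and control leaves was tested as an interaction, with a median SE of 0.51 against 0.36 for the simple comparison. It called 21 genes (0.0924%). The FR13A minus Goda Heenati difference was higher under submergence for 9 of them (0.0396%) and lower for 12 (0.0528%), by 2.05 to 7.25 on the log2 scale. Of these, 8 were called between genotypes only in submerged leaves, 9 only in control leaves and 4 in both. With the replicate number as a block 83 genes were called (0.365%), 35 higher and 48 lower, the 21 among them. No gene named here was in either set, and 1023 genes had an unadjusted p below 0.05. The count moved by over 1.5 times when 1 array was left out in most cases. It was 13 without FR13A submerged replicate 2, 11, 8 and 44 without Goda Heenati submerged replicates 1, 2 and 3, 7, 11 and 11 without FR13A control replicates 1, 2 and 3, and 11 and 9 without Goda Heenati control replicates 1 and 2.

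**Figure D1:**
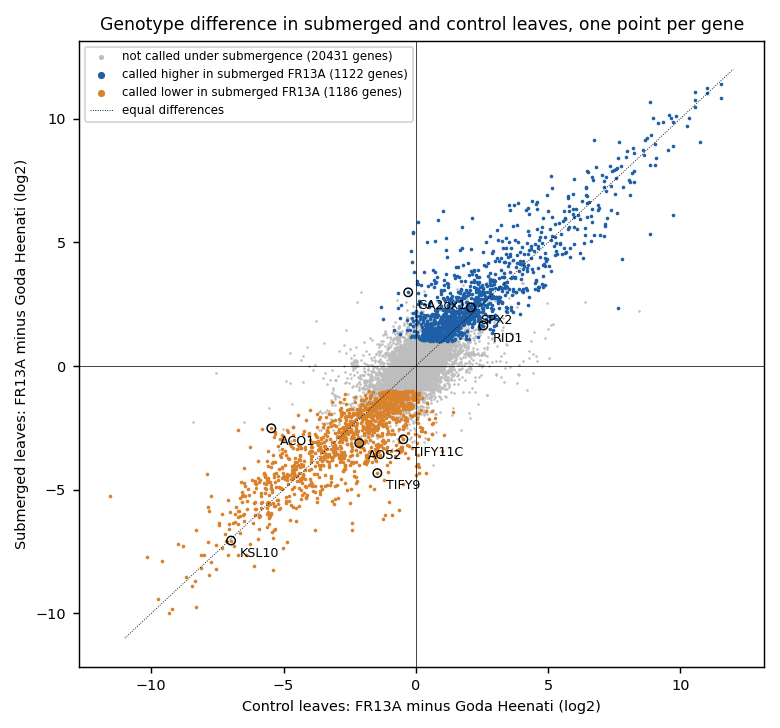
Each point is one of 22739 genes, with the FR13A minus Goda Heenati difference in control leaves on the x axis and in submerged leaves on the y axis (both log2); blue genes were called higher and orange genes called lower in submerged FR13A, and circles mark 8 named genes. Of the called genes 1774 of 2308 differ at least 2-fold the same way in controls; KSL10 lies at -7.06 in submerged and -6.98 in control leaves, and GA2ox1 lies at 2.98 in submerged and -0.29 in control leaves.

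Named genes were a small part of the calls. Of 274 measured loci with a name, in 46 lists of pathways and markers, 8 were higher and 11 were lower in submerged FR13A, which is 6.93% against 10.1% of all genes tested. With the block 26 named loci were called, 13 in each direction. The calls are described by role below.

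**Figure D2:**
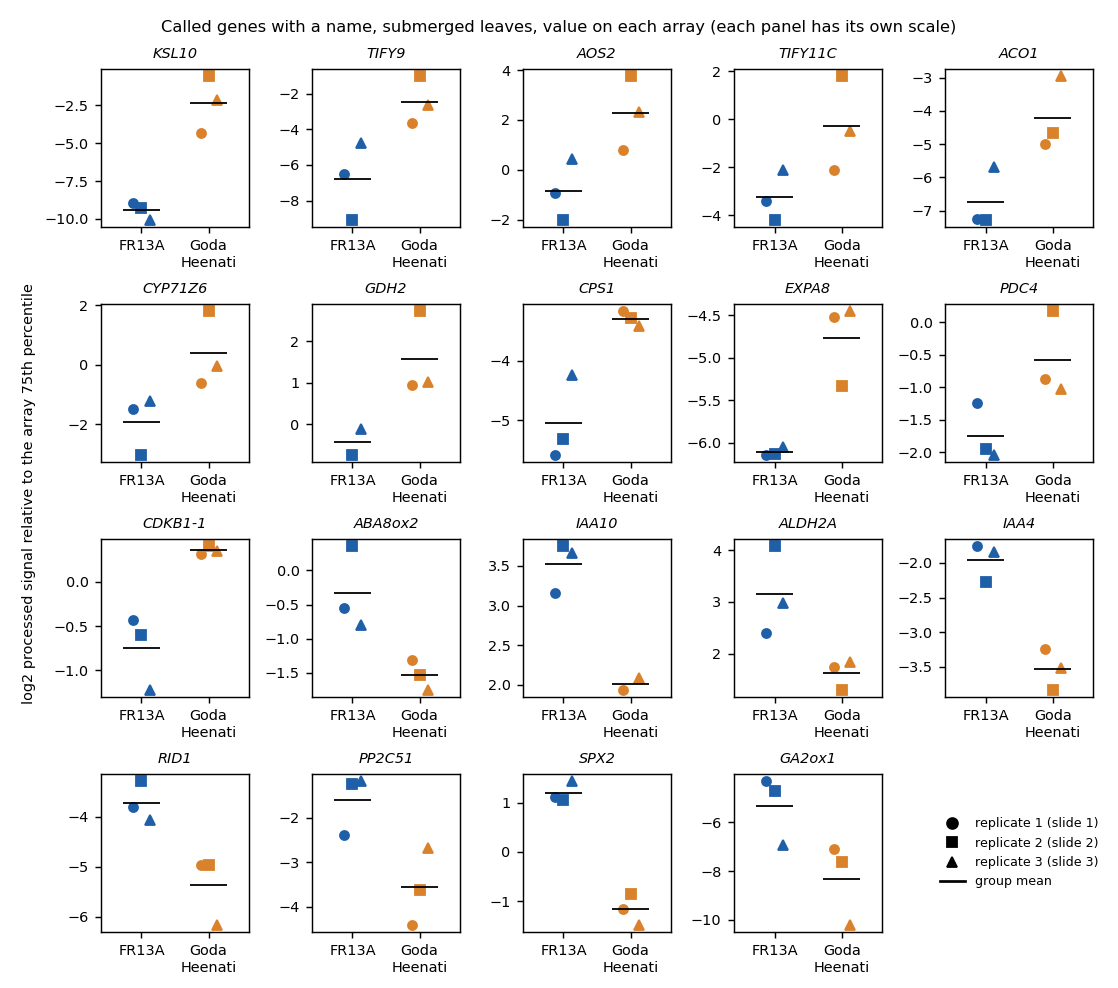
Log2 level of the 19 called genes with a name on each submerged array, FR13A at the left (blue) and Goda Heenati at the right (orange) of every panel, with one symbol per replicate and slide and a bar at the group mean. The genotypes do not overlap in any panel; TIFY9, AOS2 and TIFY11C differ by -8.02, -5.75 and -5.95 on slide 2, and GDH2 lacks FR13A replicate 1 and IAA10 lacks Goda Heenati replicate 2.

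In gibberellin metabolism, a gene for synthesis was lower and a gene for inactivation was higher in submerged FR13A. CPS1 (Os02g0278700), ent-copalyl diphosphate synthase at the start of gibberellin synthesis, was at -5.57, -5.32 and -4.23 in FR13A and at -3.17, -3.28 and -3.41 in Goda Heenati. The groups did not overlap, and CPS1 was lower in FR13A by a difference of -1.75 ± 0.35 (limma adjusted p = 0.00728), on slide 3 by only -0.81. Its call was lost without slide 1 (-1.42, limma adjusted p = 0.147) or slide 2 (-1.61, limma adjusted p = 0.148). In controls its difference was -1.03 ± 0.35 and did not pass (limma adjusted p = 0.127). GA2ox1 (Os05g0158600), a gibberellin 2-oxidase that inactivates gibberellins, was at -4.32, -4.72 and -6.94 in FR13A and at -7.08, -7.64 and -10.19 in Goda Heenati. No Goda Heenati submerged array and no control array of either genotype was well above background for it. Probes were kept if some group had all 3 arrays well above background, and GA2ox1 passed only through submerged FR13A. Its call and its bound, at least 5.20-fold higher in submerged FR13A than in submerged Goda Heenati, rest on that selection. The bound makes no allowance for sampling error, and without Goda Heenati replicate 3 the fitted log2 difference, 2.03, lay under it. The fitted difference, 2.98 ± 0.81 (limma adjusted p = 0.0379), was 2.76, 2.92 and 3.25 on the 3 slides. Its call was lost without FR13A replicate 1 (2.47), FR13A replicate 2 (2.68), Goda Heenati replicate 2 (3.31) or Goda Heenati replicate 3 (2.03), with a highest adjusted p of 0.141. The interaction for GA2ox1, 3.27 ± 1.14, did not pass (limma adjusted p = 0.746).

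The other 5 measured genes of gibberellin synthesis and inactivation were not called. The list counted 1 higher and 1 lower of 7, with a median of -0.21, where 10.1% of all genes tested were called. GA20ox2 (Os01g0883800), the oxidase that makes bioactive gibberellin precursors and is the SD1 locus of semidwarf rice, was at 1.62, 1.73 and 1.72 in FR13A, against 1.96, 2.77 and 2.79 in Goda Heenati. The values did not overlap, yet the difference of -0.82 ± 0.86 did not pass (limma adjusted p = 0.735). It was also under the 2-fold limit, and with the 6 submerged arrays fitted alone its limma adjusted p was 0.180. Of 4 genes of gibberellin signalling none was called. SLR1 (Os03g0707600), the DELLA repressor of gibberellin responses, differed by -0.38 ± 0.19 (limma adjusted p = 0.305), and SLRL1 (Os01g0646300), a DELLA-like repressor, by 0.29 ± 0.50 (limma adjusted p = 0.874).

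In ethylene synthesis, ACO1 (Os09g0451400), an ACC oxidase of the last step, was lower in FR13A. It was at -7.24, -7.26 and -5.69 in submerged FR13A and at -4.99, -4.68 and -2.97 in submerged Goda Heenati, with no overlap. Only 1 of the 3 FR13A arrays was well above background, against 3 of 3 for Goda Heenati, and the fitted difference was -2.52 ± 0.64 (limma adjusted p = 0.0281). In controls ACO1 differed by -5.46 ± 0.64 (limma adjusted p = 0.000206), where it averaged -6.09 in FR13A and -0.63 in Goda Heenati. The interaction of 2.94 ± 0.91 did not pass (limma adjusted p = 0.535). The call under submergence was lost without FR13A replicate 1 (-2.27), FR13A replicate 2 (-2.25), Goda Heenati replicate 2 (-2.75) or Goda Heenati replicate 3 (-1.90), with adjusted p up to 0.115.

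The other ethylene genes were not called. ACS1 (Os03g0727600), an ACC synthase, differed by -0.66 ± 0.94 (limma adjusted p = 0.833). ACS2 (Os04g0578000), another ACC synthase, had -0.53, -5.37 and -1.21 on slides 1, 2 and 3, and its overall difference of -2.37 ± 1.16 did not pass (limma adjusted p = 0.295). None of 6 signalling genes was called, and they spanned only -0.33 to 0.07. Among them EIN2 (Os07g0155600), the membrane protein that carries the ethylene signal to the nucleus, was at 1.87, 1.98 and 1.80 in FR13A and at 2.08, 1.87 and 1.86 in Goda Heenati. SUB1B (Os09g0287000) and SUB1C (Os09g0286600), ethylene response factor genes of the SUB1 locus, gave differences of 0.09 ± 0.84 (limma adjusted p = 0.981) and 0.01 ± 0.33 (limma adjusted p = 0.995). SUB1C was at 2.77, 3.62 and 2.83 in FR13A and at 2.60, 3.63 and 2.96 in Goda Heenati. Its 3 probes did not agree in sign, from -0.46 to 0.64, and the slide 1 arrays of both genes were saturated. No other gene of the SUB1 locus was in the lists, so SUB1B and SUB1C do not stand for the whole locus.

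In abscisic acid metabolism and response, 1 of 5 and 1 of 11 measured genes were higher in submerged FR13A and none was lower. Of all genes tested 4.93% were called higher. ABA8ox2 (Os08g0472800), an abscisic acid 8'-hydroxylase that breaks the hormone down, was at -0.55, 0.35 and -0.80 in FR13A and at -1.31, -1.52 and -1.74 in Goda Heenati. It was higher in FR13A by 1.19 ± 0.30 (limma adjusted p = 0.0266), while controls gave -0.14 ± 0.30. That call was lost without FR13A replicate 2 (0.85), Goda Heenati replicate 2 (1.19) or Goda Heenati replicate 3 (1.08), at adjusted p up to 0.094. PP2C51 (Os05g0572700), a clade A type 2C phosphatase of the kind that restrains abscisic acid signalling, was at -2.38, -1.24 and -1.18 in FR13A and at -4.40, -3.62 and -2.67 in Goda Heenati. It was higher in FR13A by 1.97 ± 0.47 (limma adjusted p = 0.0198), and no control array of either genotype was well above background for it. Its call was lost without FR13A replicate 2 (1.79), FR13A replicate 3 (1.75), Goda Heenati replicate 1 (1.55) or Goda Heenati replicate 2 (1.94), at adjusted p up to 0.0857. ABA8ox3 (Os09g0457100), a related hydroxylase, was well above background on 3 FR13A arrays and 1 Goda Heenati array. Its difference of 2.28 ± 0.69 missed the threshold (limma adjusted p = 0.0638) and passed with the replicate block (limma adjusted p = 0.00996).

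Jasmonate genes were lower in submerged FR13A in 3 of 17 cases, higher in none, and 15 of the 17 had a negative difference, with a median of -0.64. Of all 22739 genes tested 5.22% were called lower and 11144 had a negative difference. AOS2 (Os03g0225900), an allene oxide synthase of jasmonate synthesis, was at -0.92, -2.0 and 0.41 in FR13A and at 0.80, 3.75 and 2.30 in Goda Heenati. Its difference was -3.12 ± 0.82 (limma adjusted p = 0.0324), and its 4 probes gave -3.12 to -2.93. TIFY9 (Os04g0395800), a JAZ repressor, was at -6.49, -9.06 and -4.78 in FR13A and at -3.65, -1.04 and -2.65 in Goda Heenati. It was lower in FR13A by a difference of -4.33 ± 1.04 (limma adjusted p = 0.02), and 2 of the 3 FR13A arrays were well above background for it. TIFY11C (Os03g0180900), another JAZ repressor, was at -3.39, -4.17 and -2.12 in FR13A and at -2.10, 1.78 and -0.47 in Goda Heenati, a difference of -2.96 ± 0.81 (limma adjusted p = 0.0395). In controls the list's median was -0.47. There AOS2, TIFY9 and TIFY11C differed by -2.14, -1.46 and -0.47, and none of these 3 genes was called.

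One slide carried much of this jasmonate difference. On slides 1, 2 and 3 AOS2 differed by -1.72, -5.75 and -1.89, TIFY9 by -2.84, -8.02 and -2.13, and TIFY11C by -1.29, -5.95 and -1.65. Each gene thus kept its sign on every slide, and slide 2 gave the most negative value for each. The list's median was 0.13, -1.62 and -0.47 on slides 1, 2 and 3, with 7, 15 and 15 of 17 genes negative. Relative to each gene's mean over the 6 submerged arrays, the list's median stood at 0.91 on Goda Heenati replicate 2 and -0.72 on FR13A replicate 2, and between -0.26 and 0.34 on the other 4 arrays. Without slide 2 the differences of AOS2, TIFY9 and TIFY11C were -1.80, -2.48 and -1.47 and none was called (limma adjusted p = 0.459, 0.105 and 0.407). Leaving out Goda Heenati replicate 2 alone gave -2.39, -3.63 and -1.94, and leaving out FR13A replicate 2 alone gave -2.54, -3.19 and -2.49, again with no call (adjusted p from 0.0632 to 0.158). Without Goda Heenati replicate 3 the 3 calls were also lost, at -3.11, -4.43 and -3.07, and without FR13A replicate 1 those of AOS2 (-3.08) and TIFY11C (-2.88) were lost.

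Of 12 measured diterpenoid phytoalexin genes, 2 were lower in submerged FR13A and none was higher, with 11 negative differences and a median of -0.94. Among all 22739 genes tested 5.22% were called lower and 11144 had a negative difference. KSL10 (Os12g0491800), a kaurene synthase-like enzyme of oryzalexin synthesis, was at -8.98, -9.26 and -10.05 in FR13A and at -4.35, -0.59 and -2.17 in Goda Heenati. No FR13A array, submerged or control, was well above background for KSL10, while all 6 Goda Heenati arrays were. KSL10 was kept for testing only through Goda Heenati arrays, where it is high. Its call and its bound, at least 61.1-fold lower in submerged FR13A, rest on that selection. The fitted difference was -7.06 ± 0.74 under submergence (limma adjusted p = 8.87e-05) and -6.98 ± 0.74 in controls (limma adjusted p = 9.85e-05). The interaction was -0.07 ± 1.05. CYP71Z6 (Os02g0570500), a cytochrome P450 of the diterpenoid gene cluster on chromosome 2, was at -1.48, -3.01 and -1.22 in FR13A and at -0.62, 1.79 and -0.03 in Goda Heenati. It was lower in FR13A by a difference of -2.29 ± 0.61 (limma adjusted p = 0.0351), against 0.66 ± 0.61 in controls (limma adjusted p = 0.88). Its slides gave -0.86, -4.80 and -1.20, and without slide 2 its difference was -1.03 and not called (limma adjusted p = 0.301). The call was also lost without FR13A replicate 1 (-2.50), FR13A replicate 2 (-1.73), Goda Heenati replicate 2 (-1.58) or Goda Heenati replicate 3 (-2.49). The list's median was 0.21, -2.81 and -0.30 on slides 1, 2 and 3, and all 12 genes were negative on slide 2. In control leaves the list's median was 0.62.

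**Figure D3:**
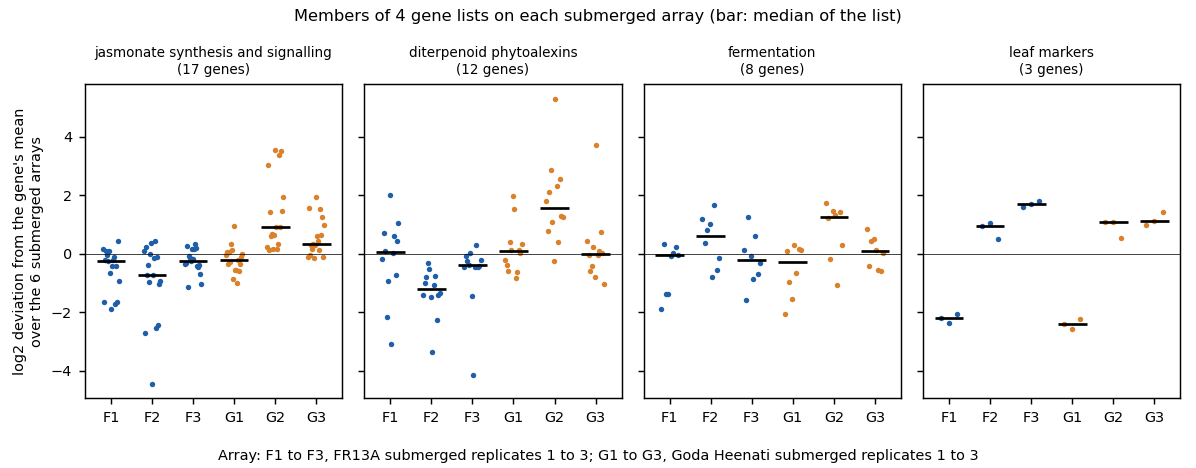
Deviation of each gene from its own mean over the 6 submerged arrays (y axis, log2) for members of 4 lists, with FR13A replicates 1 to 3 (F1 to F3, blue) left of Goda Heenati replicates 1 to 3 (G1 to G3, orange) and a bar at the list's median. Jasmonate and phytoalexin genes stand highest on Goda Heenati replicate 2, with medians of 0.91 and 1.56, and the 3 leaf markers are low on both slide 1 arrays, at -2.21 and -2.41.

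Fermentation genes split. Of 8 measured, ALDH2A was higher and PDC4 lower in submerged FR13A, and 6 were not called, with a list median of -0.34. Among all genes tested 10.1% were called. ALDH2A (Os02g0730000), a mitochondrial aldehyde dehydrogenase that removes acetaldehyde, was at 2.41, 4.07 and 2.98 in FR13A and at 1.74, 1.31 and 1.84 in Goda Heenati. The difference was 1.52 ± 0.43 (limma adjusted p = 0.0462), and 0.58 ± 0.43 in controls, where levels lay between -4.83 and -3.42. PDC4 (Os01g0160100), a pyruvate decarboxylase, was at -1.24, -1.95 and -2.03 in FR13A and at -0.87, 0.17 and -1.02 in Goda Heenati, a difference of -1.17 ± 0.33 (limma adjusted p = 0.0491), with 0.12 ± 0.33 in controls. Both adjusted p lay just under the threshold. On slides 1, 2 and 3 ALDH2A differed by 0.67, 2.76 and 1.14 and PDC4 by -0.37, -2.12 and -1.01, so slide 2 gave the widest gap for each. ALDH2A lost its call without any one of FR13A replicates 2 (1.07) and 3 (1.61) or Goda Heenati replicates 1 (1.58), 2 (1.36) and 3 (1.63). PDC4 lost its call without any one of FR13A replicates 2 (-1.06) and 3 (-1.02) or Goda Heenati replicates 1 (-1.31) and 2 (-0.80). Adjusted p reached 0.167 for ALDH2A and 0.169 for PDC4.

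The alcohol dehydrogenases and PDC1 were not called. ADH1 (Os11g0210300) was at 2.72, 5.82 and 4.76 in submerged FR13A and at 2.56, 6.37 and 5.47 in submerged Goda Heenati, with overlapping groups and saturated slide 1 arrays (-0.37 ± 0.92, limma adjusted p = 0.925). ADH2 (Os11g0210500) was at 2.64, 2.67 and 0.71 in FR13A and at 2.40, 3.52 and 1.89 in Goda Heenati (-0.59 ± 0.58, limma adjusted p = 0.705). PDC1 (Os05g0469600), another pyruvate decarboxylase, differed by 0.48 ± 0.62 (limma adjusted p = 0.807) at its brightest probe and by up to 1.1 over its 4 probes. HB1 (Os03g0233900), a non-symbiotic haemoglobin, differed by -0.20 ± 0.49 (limma adjusted p = 0.922).

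None of 8 sucrose genes and 4 starch breakdown genes was called. SUS1 (Os03g0401300), a sucrose synthase that splits sucrose, was at 0.68, 1.03 and -0.45 in FR13A and at 1.24, 2.16 and 0.93 in Goda Heenati. The groups overlapped, but each slide had FR13A below Goda Heenati, by -0.56, -1.12 and -1.38. The difference of -1.02 ± 0.54 did not pass (limma adjusted p = 0.338) and did with the replicate block (limma adjusted p = 0.00446). RAmy3D (Os08g0473900), a sugar-starvation alpha-amylase, was at -6.35, -5.97 and -6.63 in FR13A and at -4.47, -3.74 and -5.53 in Goda Heenati, without overlap and without passing (-1.74 ± 0.69, limma adjusted p = 0.173). CIPK15 (Os11g0113700), a protein kinase that links oxygen deficiency to starch breakdown, differed by 0.04 ± 1.04 (limma adjusted p = 0.993).

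Of 22 Aux/IAA genes, which encode repressors of auxin responses, 2 were higher in submerged FR13A and none was lower, with 15 positive differences and a median of 0.32. The share called, 9.09%, was near the 10.1% of all genes tested, of which 11595 of 22739 had positive differences. IAA4 (Os01g0286900) was at -1.76, -2.28 and -1.84 in FR13A and at -3.24, -3.83 and -3.52 in Goda Heenati. Its difference was 1.57 ± 0.30 (limma adjusted p = 0.0053), between 1.48 and 1.68 on every slide, and it was also called in controls, at 1.34 ± 0.30 (limma adjusted p = 0.0159). Without slide 1 (1.62) or slide 3 (1.52) the submerged call was lost, at limma adjusted p of 0.0812 and 0.0745. IAA10 (Os02g0817600) was at 3.16, 3.75 and 3.66 in FR13A and at 1.94 and 2.08 in Goda Heenati replicates 1 and 3, its spot on replicate 2 having been marked as an outlier by the scanner software. The difference was 1.51 ± 0.30 (limma adjusted p = 0.0114), all 3 of its probes were called (1.27 to 1.51), and controls gave 0.67 ± 0.30. Of the FR13A arrays 1 was saturated for IAA10. Its call was lost without Goda Heenati replicate 1 (1.44, adjusted p = 0.072) or 3 (1.59, adjusted p = 0.0514), which leaves that group 1 array, taken to vary like the other groups.

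Single calls came from other pathways. SPX2 (Os02g0202200), a phosphate-sensing inhibitor of the regulator PHR2, was at 1.11, 1.06 and 1.43 in FR13A and at -1.16, -0.86 and -1.48 in Goda Heenati. It was higher in FR13A by 2.37 ± 0.24 (limma adjusted p = 7.25e-05) and in controls by 2.08 ± 0.24 (limma adjusted p = 0.00019), and no alternative tried removed its call under submergence. The other 8 measured phosphate genes, SPX1 (Os06g0603600) and SPX3 (Os10g0392600) included, were not called. RID1 (Os10g0419200), a zinc-finger regulator that promotes flowering, was at -3.81, -3.30 and -4.07 in FR13A and at -4.96, -4.97 and -6.16 in Goda Heenati, a difference of 1.64 ± 0.41 (limma adjusted p = 0.0262). In controls RID1 was higher in FR13A by 2.55 ± 0.41 (limma adjusted p = 0.00195). The call of RID1 under submergence was lost without FR13A replicate 1 (1.68), FR13A replicate 2 (1.42) or Goda Heenati replicate 3 (1.24).

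Of 8 expansin genes 1 was called, and of 3 measured cell division genes 1, both lower in FR13A, where 5.22% of all genes were lower. EXPA8 (Os01g0248900), an alpha-expansin that loosens cell walls, was at -6.14, -6.14 and -6.05 in FR13A and at -4.52, -5.33 and -4.46 in Goda Heenati. The difference was -1.34 ± 0.29 (limma adjusted p = 0.0117), and no control array of either genotype was well above background for EXPA8. The other 7 measured expansins were not called and spanned -1.42 to 0.89. CDKB1-1 (Os01g0897000), a B-type cyclin-dependent kinase of dividing cells, was at -0.43, -0.60 and -1.22 in FR13A and at 0.32, 0.40 and 0.35 in Goda Heenati (-1.11 ± 0.22, limma adjusted p = 0.00623), with -0.67 ± 0.22 in controls. CDKB1-1 fell under the 2-fold limit without FR13A replicate 3 (-0.87), and EXPA8 missed the threshold without Goda Heenati replicate 3 (-1.18, adjusted p = 0.0506). Of 8 cellulose synthase genes all had positive differences, 0.27 to 1.8, and none was called, where 11595 of all 22739 genes tested were positive. CESA2 (Os03g0808100) was well above background on all 3 submerged FR13A arrays and on none of Goda Heenati, a bound of at least 2.42-fold, and passed only with the replicate block (limma adjusted p = 0.0558 without it and 0.0389 with it).

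In nitrogen metabolism GDH2 (Os04g0543900), a glutamate dehydrogenase, was at -0.72 and -0.11 in FR13A replicates 2 and 3, replicate 1 having been marked as an outlier, and at 0.95, 2.72 and 1.02 in Goda Heenati. It was lower in FR13A by a difference of -1.98 ± 0.52 (limma adjusted p = 0.0378), which did not pass with the replicate block (limma adjusted p = 0.0723) or without FR13A replicate 2 (-1.68) or 3 (-2.29). NiR (Os01g0357100), nitrite reductase, was at -0.82, -1.01 and -0.61 in FR13A and at -0.54, -0.22 and 0.72 in Goda Heenati (-0.80 ± 0.34, limma adjusted p = 0.206). SGR (Os09g0532000), the stay-green protein that starts chlorophyll breakdown, was at 0.92, -0.62 and 0.97 in FR13A and at 1.16, 2.61 and 2.24 in Goda Heenati. Its groups did not overlap, its slides gave -0.24, -3.23 and -1.27, and its difference of -1.58 ± 0.46 narrowly missed the threshold (limma adjusted p = 0.0542), with 0.00 ± 0.46 in controls. SGR passed without FR13A replicate 3 (-1.85) or Goda Heenati replicate 1 (-2.0).

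The block with the replicate number turned 8 list members into calls, described here for that change. SUS1, CESA2 and ABA8ox3 were among them. MADS14 (Os03g0752800), a floral MADS-box gene, and CKX1 (Os01g0187600), a cytokinin oxidase, were lower in submerged FR13A with the block, at -2.77 and -1.03 (limma adjusted p = 0.00359 with the block and 0.148 without it for MADS14, and 0.0132 and 0.396 for CKX1). HSP101 (Os05g0519700), a heat-shock chaperone, PIP2-6 (Os04g0233400), an aquaporin, and IAA30 (Os12g0601300), an Aux/IAA repressor, were higher with it, at 1.71, 1.16 and 1.6. Without it their adjusted p was 0.185, 0.0865 and 0.150, and with it 0.00942, 0.0110 and 0.0375. HSP101 was at -1.94, -1.27 and -0.51 in FR13A and at -3.39, -2.85 and -2.61 in Goda Heenati, and all 5 heat-shock list members had positive differences with a median of 1.20. The heat-shock median was 0.84, 1.28 and 1.24 on slides 1, 2 and 3, and 0.72 in control leaves. Of all 22739 genes tested 11595 had positive differences.

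**Figure D4:**
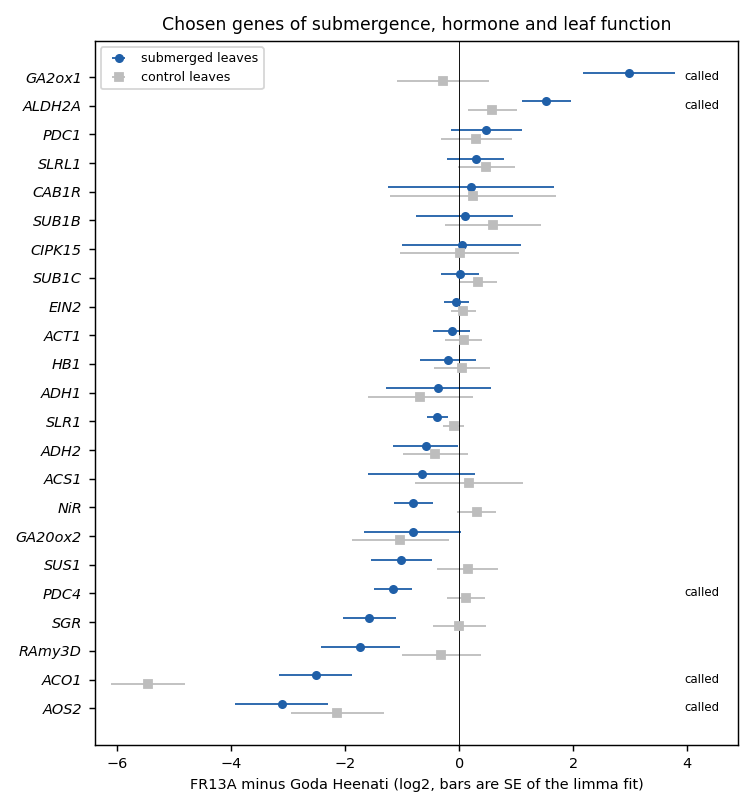
FR13A minus Goda Heenati difference (x axis, log2, bars are SE) of 23 chosen genes in submerged leaves (blue circles) above that in control leaves (grey squares), ordered by the submerged difference. The genes marked as called are GA2ox1, ALDH2A, PDC4, ACO1 and AOS2, and ACO1 lies at -2.52 in submerged and -5.46 in control leaves.

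Other lists gave no call. None of 10 genes of glycolysis, which feeds pyruvate to fermentation, was called, with a median of 0.20. The same held for 11 antioxidant genes (median 0.03), 12 aquaporins that pass water through membranes (0.09), 8 genes of chlorophyll synthesis (0.29), 7 clock genes (0.23), 9 cytokinin genes (0.65) and 4 genes of chlorophyll breakdown (-0.97), SGR among the last. All 4 breakdown genes had negative differences, while the median of all genes tested was 0.01.

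Leaf markers were strongly expressed in both genotypes. CAB1R (Os09g0346500), a chlorophyll a/b-binding protein, was at 3.15, 6.29 and 6.94 in FR13A and at 2.94, 6.46 and 6.35 in Goda Heenati (0.21 ± 1.46, limma adjusted p = 0.978). All 3 measured leaf markers were well above background on every submerged array, and none was called. Their median stood at -2.21 and -2.41 on the 2 slide 1 arrays, where CAB1R was saturated, and between 0.94 and 1.70 on the others. None of 3 root markers and 2 meristem or vein markers was called, with differences from -0.55 to 0.74 and from -0.61 to 1.22. Root markers Lsi1 (Os02g0745100), a silicon transporter, and IRT1 (Os03g0667500), an iron transporter, were nevertheless well above background on all 6 submerged arrays, and their part in the results was not tested. In whole leaves, fewer cells of a type and less RNA per cell cannot be told apart.

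Many genes were measurable in only 1 genotype under water. In submerged FR13A all 3 arrays measured 314 genes well above background while no Goda Heenati submerged array did so for any of their probes. The reverse held for 245 genes. Both sets were picked for this pattern, so they describe detection and support no difference. As bounds, the median gene was at least 7.6-fold higher in FR13A in the first set and at least 11.1-fold lower in the second, and the largest bounds were 1440-fold and 553-fold. The same detection pattern held in controls for 149 and 155 of them. Another 23 and 15 were above background on no control array of either genotype, GA2ox1 being one of the 23. KSL10, GA2ox1 and CESA2 were the named genes in these sets.

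The same probes read 2 genotypes, so probes of one gene were set side by side. Taken singly, 2967 of 33071 probes were called (8.97%). Among 416 called genes with several kept probes, all probes had the called sign in 391 (94.0%), all were at least 2-fold in 337 (81.0%) and all were called themselves in 298 (71.6%). In 25 genes some probe went the other way, in 12 of them by at least 2-fold. Probes of one gene differed by at least 4-fold in 71 of the 416 (17.1%). For genes called between submerged and control FR13A, where every array carries the same genotype, that share was 3.57% of 1346, and 97.0% had all probes of one sign, while all probes were called in 72.4%, close to the 71.6% between genotypes. Genes with 1 kept probe were called in 11.7% of cases and genes with several in 6.37%. ACT1 (Os03g0718100), an actin gene often used as a reference, shows this range in a gene that was not called. Its brightest probe gave -0.13 ± 0.32 (limma adjusted p = 0.923), while its 5 probes ran from -1.93 to 0.00 and 2 of them were called. A further 261 of 6112 uncalled genes with several probes had some probe called. The part of sequence differences under the probes was not tested.

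Called loci were unevenly spread over the 12 chromosomes, read from the locus identifiers. On chromosome 12 they made up 17% of loci tested (exact 95% binomial interval 14.9 to 19.1), on chromosome 11 15.9% (13.8 to 18.1) and on chromosome 10 12.4% (10.6 to 14.4). Chromosome 3 had the lowest share, 6.39% (5.53 to 7.33), and the other 8 lay between 8.20% and 10.9%. The intervals treat loci as independent. The control comparison, on other arrays, also had its 2 highest shares on chromosomes 11 (15.4%) and 12 (14.6%) and its lowest on chromosome 3 (4.77%).

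**Figure D5:**
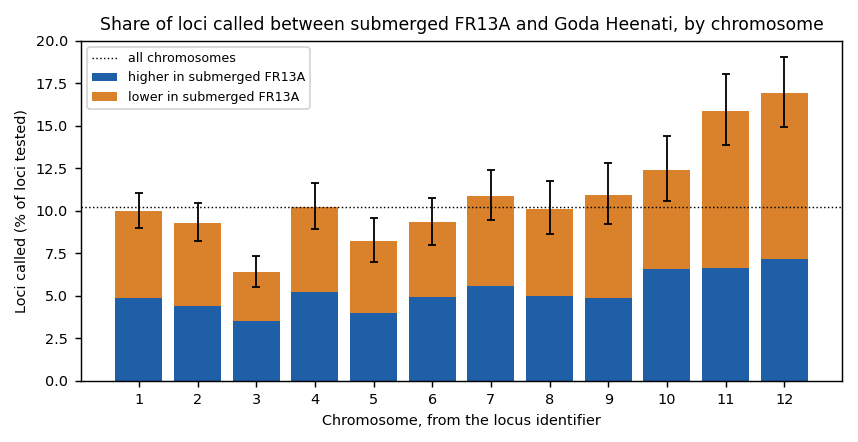
Share of tested loci called between submerged FR13A and submerged Goda Heenati (y axis, percent) on each chromosome (x axis), split into loci higher (blue) and lower (orange) in FR13A, with exact 95% binomial intervals of the total and a dotted line at all chromosomes together. Chromosomes 11 and 12 stand at 15.9% and 17%, and chromosome 3 at 6.39%.

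Neighbouring loci tended to be called together. For 14.0% of called loci the next tested locus was called in the same direction and for 7.33% in the opposite one, where 4.93% and 5.22% of all genes were called higher and lower. Runs of at least 3 called neighbours in one direction numbered 54 and held 190 loci, the longest being 8 loci lower in FR13A on chromosome 12. Of 446 windows of 50 loci, 14 held no call, the median window held 8% and 21 held at least 25%. One stretch of chromosome 12, the 401st to 550th tested loci and chosen after its values were seen, held 54 calls in 150 loci (36%), of which 46 were lower and 8 higher in submerged FR13A. In controls the same stretch held 45 calls, 39 lower and 6 higher. Of the 510 probes that the array names for miRNAs, 145 were kept, and 1 was called in submerged leaves, against 8.97% of all probes and 10.1% of all genes. It was a probe for the 3' side of osa-miR162b that was lower in FR13A (-1.59 ± 0.39, limma adjusted p = 0.0221) and above background on 1 of 3 FR13A arrays.

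With the 6 submerged arrays fitted alone 2056 genes were called, 1921 of them among the 2308, but 13 of the 19 called genes with a name were lost. Those that passed were KSL10, SPX2, CPS1, IAA4, IAA10, EXPA8 and the 4 unnamed loci. Leaving out saturated spots removed the calls of GA2ox1, ABA8ox2 and PDC4, and dropping the filter on dim probes those of ALDH2A, PDC4, GDH2 and TIFY11C. Quantile normalization removed those of ALDH2A and IAA10, and the deposited value table that of ALDH2A. With each slide left out in turn, 9, 8 and 9 of 23 calls held, the 4 unnamed loci included. With normexp background correction 7 of these 23 calls held, and KSL10 was at -1.97 (limma adjusted p = 0.467). Its estimate failed on FR13A submerged replicate 2, and on the other 11 arrays 10 calls held.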

How the data were processed

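Cy3 intensity was measured on one-colour Agilent arrays of 45151 spots; per the file headers the deposited processed signal is a background-subtracted intensity on a linear scale. Feature Extraction 10.5.1.1 is named by the submitters' processing notes. A deposited table of log2 values, whose normalization no source used here states, served as an alternative. Samples were grouped by title. Control spots, 59 probes named as controls and outlier spots were dropped. Signals were logged and scaled to the 75th percentile of each array, averaging repeated spots. A probe was kept if some group had all 3 arrays well above background (33071 of 42418 probes), and the brightest probe stood for its gene. Saturated spots were kept, which can shrink differences of bright genes. limma 3.58.1 in R 4.3.3 fitted 4 group means with 8 residual degrees of freedom (two-sided, Benjamini-Hochberg over 22739 genes, 22594 of them loci). The code was tested on simulated data with independent noise and no slide effect, so that test does not cover slide-linked spread. For a bound, the brighter group's mean was set against a floor on each dim array, the larger of the probe's own signal and the dimmest signal counted as well above background there, with no allowance for sampling error. The number of arrays limits the precision.

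Same-numbered arrays of different groups deviated together (18 pairs, correlations of deviations 0.262 to 0.787, against -0.552 to 0.031 for other numbers), so the numbers were taken to pair the samples through the shared slide. The fit reported has no block. Alternatives were the block, the submerged arrays alone, quantile normalization, the deposited table, normexp, other probe filters, saturated spots left out, the mean of probes, and each array left out.

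Names were paired with 464 loci from general knowledge and checked by chromosome against a gene table (ASM3414082v1): 296 matched, 162 names were absent from it, and 6 that mapped elsewhere were dropped. An earlier account of the series supplied 11 further pairs, for 307 named loci. The text names every called list member, a fixed set of chosen genes (one of which, with no name in the table, is not reported), and 2 unnamed loci in each direction, the largest among those well above background on all 6 arrays with all probes separated. SPX1, SPX3, Lsi1, IRT1, CESA2, ACS2, ABA8ox3, HSP101, PIP2-6, MADS14, CKX1 and IAA30 fall outside this rule and were picked with their values known. The members and lists were chosen with earlier results of these data known. Normexp background correction (offset 50) used the median spot signal in place of the mean signal planned. No sequences were used here.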

Additional observations from a re-analysis of the deposited data

Results flagged for a closer look

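The difference between submerged FR13A and submerged Goda Heenati leaves differed from that in control leaves, by the interaction test of the limma fit, for 21 of 22739 genes. Of these, 6 were well above background on all 6 submerged arrays and 5 on all 12 arrays. Among the 12 that were also called between the submerged genotypes, 6 were higher and 6 lower in FR13A. None has a name here.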

How the results depend on the processing

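The count of 2308 genes called between the submerged genotypes stayed within 1.5 times under 14 of 16 other settings, and was 1842 to 2163 (907 to 1049 higher, 931 to 1114 lower) with 1 array left out. Normexp background correction called 614 (536 higher, 78 lower, 87.3% higher against 48.6%) and put the median of all genes at 0.39 against 0.01; its estimate failed on FR13A submerged replicate 2, whose 10th percentile was -0.83. On the other 11 arrays, chosen after seeing the data, it called 1298 (664 higher, 634 lower). Probes well above background on all 12 arrays gave 995 of 18591 genes tested (508 higher, 487 lower). That is a smaller share than 2308 of 22739. Without slide 2, also chosen after seeing the data, 1080 were called (524 higher, 556 lower), and without slide 3 761 were lower. Other causes were not tested. The replicate block changed no count of calls between submerged genotypes by over 1.5 times. In controls the count was 548 with normexp, 754 with all 12 arrays above background and 1009 without slide 2.

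The 21 interaction calls became 83 with the replicate block, 44 with quantile normalization, 48 in the deposited value table, 0 with normexp and 7 with it on 11 arrays, 1 with all 12 arrays above background, 12 without saturated spots, 0, 0 and 5 without slides 1, 2 and 3, and 7 to 44 with 1 array left out.

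Direction turned for some named genes. With normexp, EXPA8 was at 0.78, CPS1 at 0.0105, ACO1 at 0.22, HB1 at 1.09, RAmy3D at 0.24, SUB1C at -0.12, CAB1R at -0.13 and CIPK15 at -0.0628. That run includes FR13A submerged replicate 2, where its estimate failed. On the other 11 arrays 0 of the 23 calls turned direction. On the other 11 arrays normexp gave SUB1C -0.24, SUB1B -0.43, CAB1R -0.41 and CIPK15 -0.22. Quantile normalization gave SUB1C -0.0237, SUB1B -0.00127 and CAB1R -0.0549, and the deposited value table -0.0221, -0.00446 and -0.0554. SUB1C was at -0.0676 without saturated spots or slide 1, CAB1R at -0.0618 as the mean of probes, EIN2 at 0.0272 without slide 1, and ACT1 at 0.0878 and CIPK15 at -0.32 without slide 2. With 1 array left out the ranges were SLRL1 -0.0225 to 0.58, HB1 -0.57 to 0.16, ACT1 -0.37 to 0.0158, PDC1 -0.0372 to 1.28, EIN2 -0.10 to 0.0191, SUB1C -0.27 to 0.29, SUB1B -0.78 to 0.91, CAB1R -0.94 to 1.37, CIPK15 -0.55 to 0.79, ADH1 -1.49 to 0.49 and ADH2 -0.95 to 0.0569. Dim genes, such as those with an array not well above background, are the least precisely measured.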
